A study of Mus musculus with 18 samples.

Results

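ATF4 integrated stress response genes were followed in BV2 cells, an immortalised mouse microglial line, exposed to oxyhemoglobin. The set held 33 genes, taken by gene symbol as ATF4 itself, its partners, its known target genes and the parts of the eIF2 pathway that feed back on it, out of 55487 genes in the deposited count table. The rule uses gene symbols and no measured value, although the set was drawn up with earlier results of these data known. Of the 33 members, 29 passed the filter on low counts and were tested, and the other 4 were too sparsely counted for a test. Each of the 33 symbols was found in the table.

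The RNA came from 6 groups of 3 libraries. One line was labelled NC and the other BAK1-KD, terms that the labels do not spell out, and both were grown in DMEM with serum in 6-well plates. Each line was sampled at 0 h as the control group and after 12 h and 24 h with oxyhemoglobin, the oxygen carrier of red cells, labelled as 10 mM, which is high for a protein and uncertain in its unit. The groups are called NC control, NC 12 h, NC 24 h, KD control, KD 12 h and KD 24 h below, and a digit after the name gives the library number. Cells had been plated 12 h before treatment, and the labels list no untreated group at 12 h or 24 h, so oxyhemoglobin and time in culture cannot be told apart. Each line is 1 labelled cell population, and whether it is a clone or a pool is not stated in the labels, so what the KD label stands for cannot be told apart from other differences between these populations. Bak1 itself, the gene named in the KD label, was not lower in the KD-labelled libraries. It had 39 counts over the 9 KD-labelled libraries, 12 of them in KD 24 h 1, and 25 over the 9 NC libraries, with 0 to 12 per library. The ratio of pooled count rates was 1.56, with a 95% exact interval from 0.92 to 2.69 that covers counting error only. So few counts check the label poorly, and KD is used here only as the name of the line.

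The integrated stress response starts when one of the kinases PERK, GCN2, PKR or HRI phosphorylates the translation factor eIF2. General protein synthesis then falls, while the mRNA of the transcription factor ATF4 is translated more, so that ATF4 activity can change with little change in its own mRNA. ATF4 pairs with C/EBP proteins on composite C/EBP-ATF elements and turns on genes for amino acid uptake and synthesis, for redox defence, and for feedback and cell death, and in microglia the response is known from studies of endoplasmic reticulum stress and neurodegeneration. The files hold RNA alone, and neither ATF4 protein nor eIF2 phosphorylation was analysed here.

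The composite element was looked for by its core, TGATGNAA, on both strands of RefSeq promoter windows running from 250 bases before to 50 bases after each annotated start (GRCm38.p6). A core was present in 11 of the 29 members with a window (37.9%), against 4.51% of 27025 genes with a window and 3.97% of all 32851 windows of that length. The form TGATGCAA was found in 8 members (Atf3, Chac1, Got1, Jdp2, Nupr1, Pycr1, Slc1a4 and Vldlr), TGATGTAA in 2 (Pck2 and Trib3) and TGATGAAA in 1 (Asns). The 5 sites below are shown because they belong to the 5 members with a core whose mRNA was called lower in KD control than in NC control. Each is given 5′ to 3′ on the strand that reads TGATG, with the core in capitals and 11 bases on either side.
Trib3, chr2:152344028-152344057, plus strand: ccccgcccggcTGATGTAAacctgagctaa
Chac1, chr2:119351038-119351067, minus strand: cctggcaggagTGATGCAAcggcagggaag
Asns, chr6:7693214-7693243, minus strand: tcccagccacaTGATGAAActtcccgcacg
Got1, chr19:43524689-43524718, plus strand: ggaggcttgtaTGATGCAAccaatgcaatg
Pck2, chr14:55540152-55540181, minus strand: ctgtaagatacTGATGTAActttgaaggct
The cores of Got1, Pck2 and Pycr1 lay close together in distance from the RefSeq start, at -102 to -95, -103 to -96 and -103 to -96, and those of Atf3 and Nupr1 at -110 to -103. The core of Asns lay at -23 to -16 and that of Chac1 at -193 to -186, while that of Trib3 lay at 15 to 22. The RefSeq start of Trib3 does not match GENCODE M21, whose Trib3 gene on the minus strand starts at 152344032, so that in GENCODE the core lies upstream. A match of letters describes the sequence and is not evidence of a bound site. Calls were made among members with and without a core. Of the tested members, 5 of 9 with a core and 7 of 17 without one were called lower in KD control than in NC control. In KD 12 h against KD control, 3 of 9 and 7 of 17 were called higher. Of all tested genes, 1.3% and 7.93% were called in those directions. Slc7a5, Slc1a5 and Eif4ebp1 were tested but had no window, so these counts leave them out. Slc7a5 was called in both comparisons and Eif4ebp1 in KD 12 h.

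**Figure D1:**
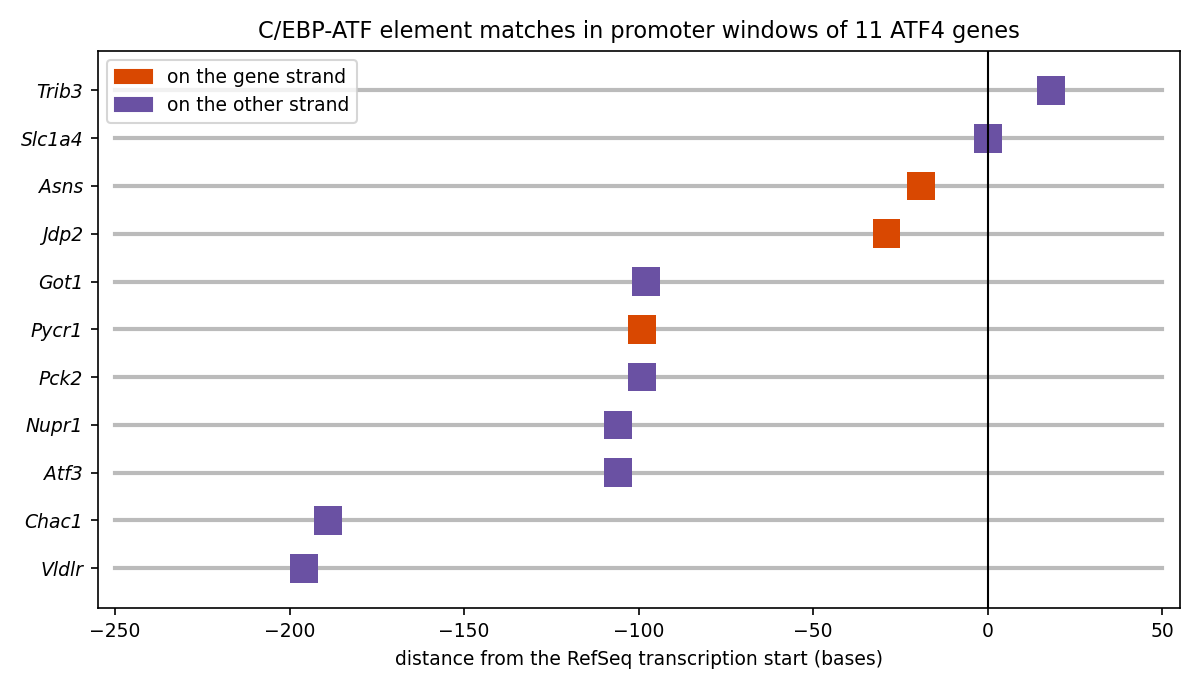
Distance in bases of the TGATGNAA core from the RefSeq transcription start for the 11 members that held one, each bar being the 8 bases of the core. Most cores lie upstream of the start, between -200 and -16, while that of Slc1a4 spans the start and that of Trib3 lies at 15 to 22 from its RefSeq start, upstream of the start in GENCODE M21.

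Library totals ran from 4361313 to 6008810 counts. A single transcript, CT010467.2, took 12.89 to 25.27% of them, and mitochondrial genes took 0.6046 to 2.365%. Libraries of one group differed by more than sampling error in each pair (chi-square over degrees of freedom from 4.5 to 17.3), and each was counted as 1 sample. The labels do not tell whether a group's libraries were separate cultures, and the p-values cover no more than the spread among the 3 libraries. All 12 microglia and macrophage markers that were listed had counts, while the defining neuronal markers Rbfox3, Snap25 and Syt1, 3 of 4 astrocyte markers and the globins were at 0. In these bulk libraries, fewer expressing cells and less RNA per cell cannot be told apart. The libraries numbered 2 were the lowest of their group in all 6 groups for 7 members, namely Atf4, Trib3, Sesn2, Slc7a5, Slc7a1, Pck2 and Chac1.

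Levels are given as TMM-scaled CPM (counts scaled to library size) in libraries 1, 2 and 3 of each group. Differences are log2 fold changes ± their standard error from edgeR's quasi-likelihood fit over all 18 libraries, and a gene is called where its Benjamini-Hochberg adjusted p over 15996 tested genes is under 0.05.

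**Figure D2:**
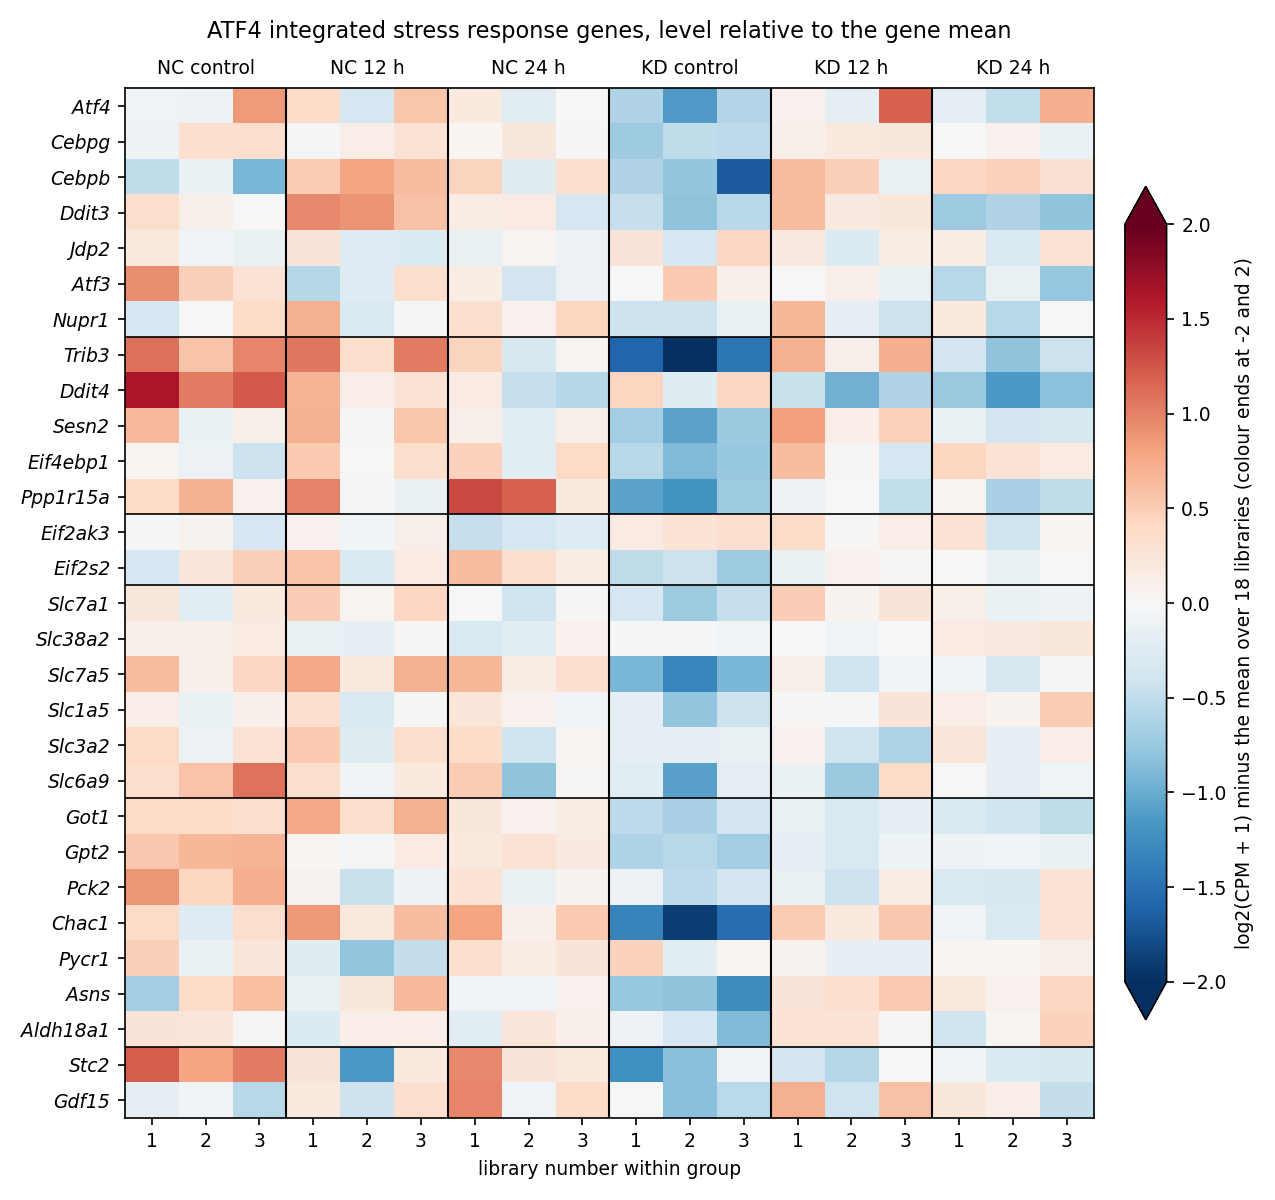
Heat map of the 29 tested members (rows, grouped by role) in the 18 libraries (columns, grouped by line and time), coloured by the log2 CPM of each library minus the mean of that gene over all libraries. The 3 KD control libraries stand apart as the lowest block, with median deviations over the members of -0.453, -0.712 and -0.53, while the other 15 libraries lie between -0.168 and 0.374.

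The clearest difference was between the lines before treatment. In KD control, 13 of the 29 tested members were called lower than in NC control and none was called higher, while 1.3% of all tested genes were called lower and 0.763% higher. The median log2 fold change over the 29 members was -0.78, against about 0 over all genes. The 13 were Ddit3, Cebpg, Trib3, Ppp1r15a, Ddit4, Sesn2, Slc7a5, Asns, Gpt2, Pck2, Got1, Chac1 and Stc2, while neither Eif2ak3 nor Eif2s2, the kinase and eIF2 subunit of the set, was called. At an unadjusted p under 0.05, which 12.1% of all genes passed, no member was higher in KD control and 20 were lower. Leaving out 1 library at a time gave 9 to 13 called members. The summed level of the microglia and macrophage markers was also different between these groups, at 720.4 to 769 CPM in KD control and 529.9 to 616 CPM in NC control. It was higher in KD at the later times as well. At 12 h it was 709.6 to 837.2 CPM in KD and 579.3 to 649.7 CPM in NC. At 24 h it was 559.1 to 643.1 CPM in KD and 466.2 to 515.7 CPM in NC. The part of this marker difference in the result was not tested.

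After oxyhemoglobin the members that were called mostly rose in KD, and more of them fell than rose in NC. In KD 12 h against KD control, 12 members rose and 1 fell, where 7.93% of all tested genes were called higher and 8.06% lower, and the median over the members was 0.60. In KD 24 h against KD control, 9 members rose and 1 fell, where 5.5% of all genes were called higher and 4.09% lower, and the median was 0.52. In NC 12 h against NC control, 2 members rose and 5 fell, where 6.69% of all genes were called higher and 5.55% lower, and the median was 0.00. In NC 24 h against NC control, no member rose and 2 fell, where 4.66% of all genes were called higher and 2.91% lower, and the median was -0.19. At an unadjusted p under 0.05, which 19.1% of all genes passed, edgeR had 1 member higher and 6 lower in NC 24 h. At the adjusted threshold DESeq2 called 0 higher, where it called 1449 of all genes in either direction. The edgeR fit called 1 higher with no filter on low counts and 1 without the libraries numbered 2. Those fits called 1279 and 802 of all genes in either direction. The KD comparisons with 12 h and 24 h share the KD control libraries, which are also the libraries that were low against NC control, so these comparisons are not separate evidence. The labels do not say what a library number stands for. Libraries of the same number were treated as pairs over time because their deviations from the group means correlated, at 0.108 to 0.448. These correlations do not show what the libraries of a number shared. With the number as a block more genes were called throughout. The members called with the block were 5 higher and 6 lower in NC 12 h, where 13.7% of all genes were higher and 11% lower, and 6 lower in NC 24 h, where 8.3% were lower. In KD they were 16 higher and 1 lower at 12 h, where 15.1% of all genes were higher and 13.6% lower, and 13 higher and 1 lower at 24 h, where 12.1% were higher and 9.39% lower. The 7 calls of NC 12 h fell to 4 without NC control 3 or without NC 12 h 2, and the 2 calls of NC 24 h fell to 1 without NC control 1, NC control 3, NC 24 h 2 or NC 24 h 3.

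**Figure D3:**
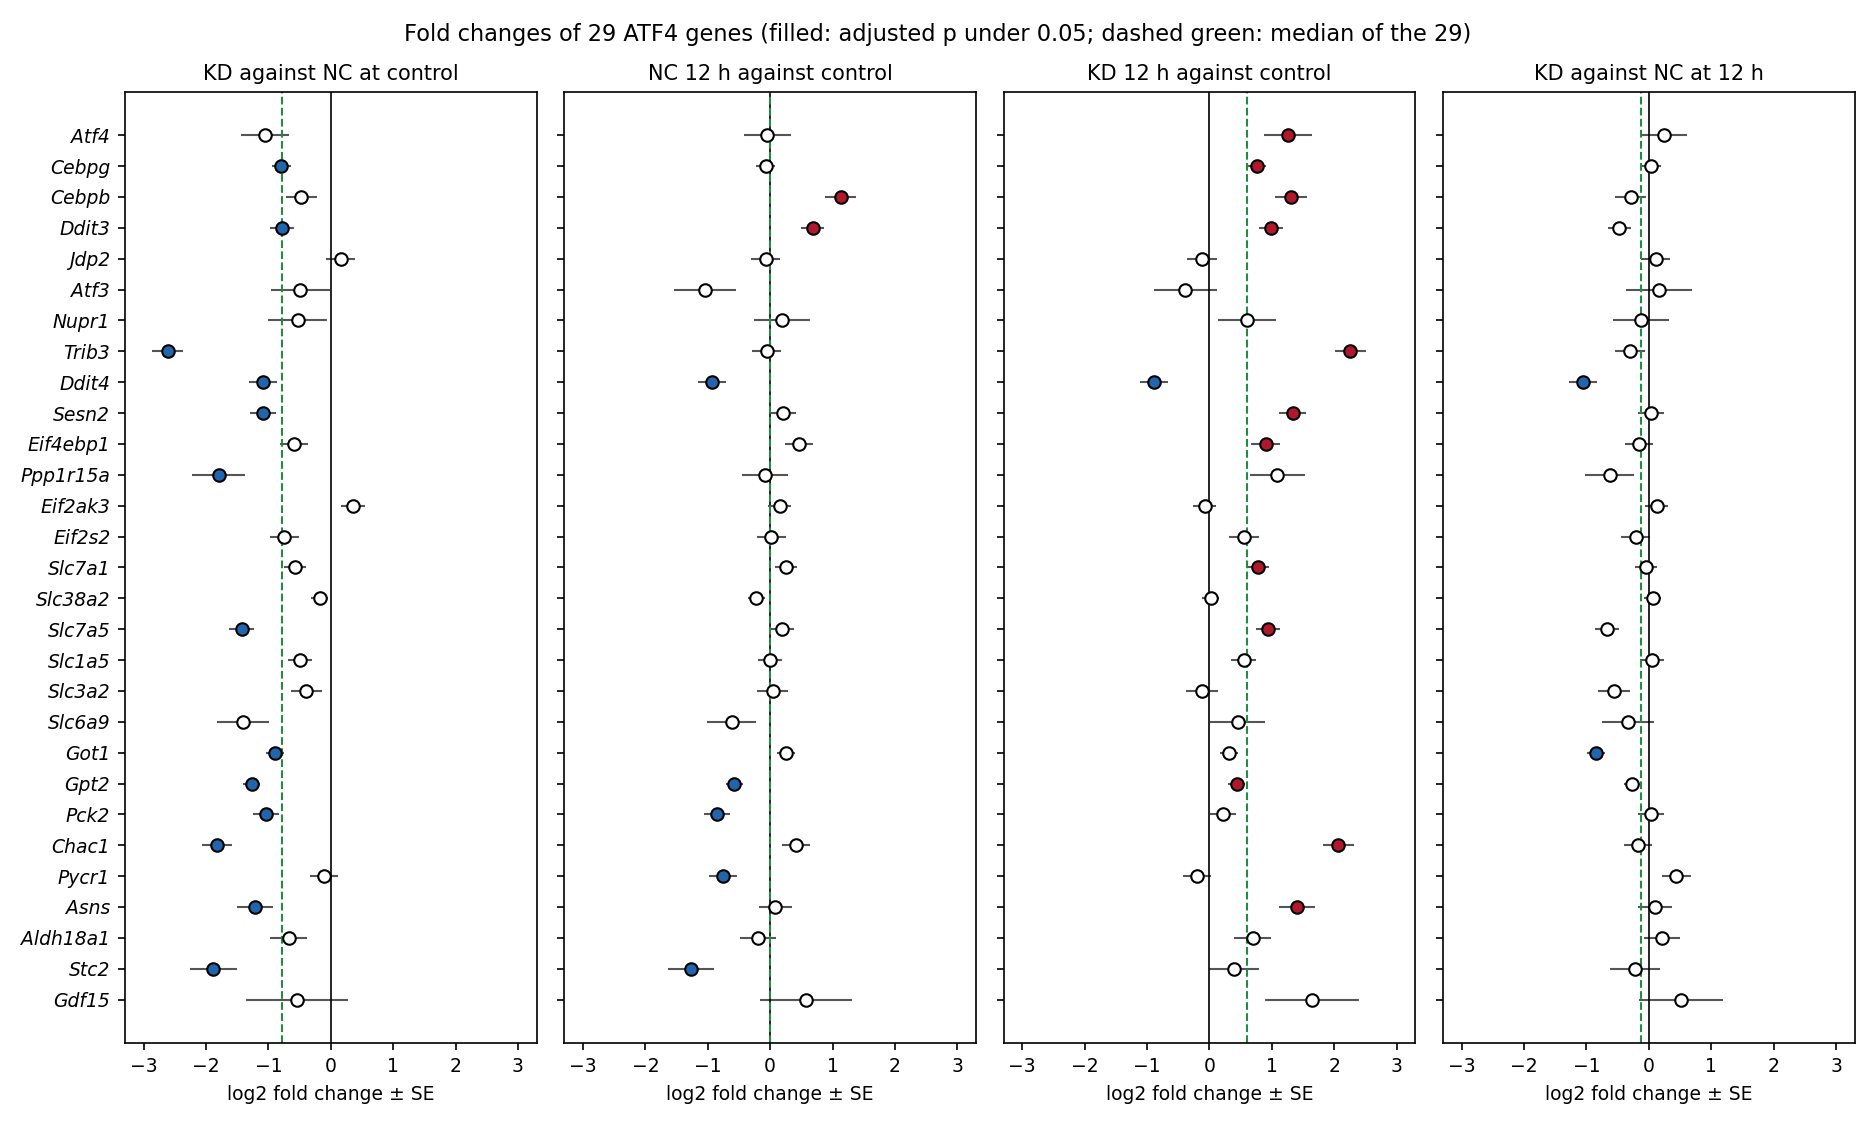
Log2 fold change (horizontal axis) of each tested member in KD against NC control, NC 12 h against control, KD 12 h against control and KD against NC at 12 h, with standard errors as bars. Filled points passed an adjusted p of 0.05 and the dashed line is the median over the members: -0.78, 0.00, 0.60 and -0.12.

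Atf4, the transcription factor at the centre of the response, stood at 125, 124 and 241 CPM in NC control and at 87.9, 60.1 and 88.4 CPM in KD control. All 3 KD control libraries were below all 3 NC control libraries, but the difference of -1.05 ± 0.38 did not pass the test (adjusted p = 0.216). NC control 3 was far above the other 2 NC control libraries. In KD 12 h it stood at 142, 116 and 305 CPM and in KD 24 h at 117, 94.6 and 221 CPM. Every KD library at 12 h was above every KD control library, and the rise of 1.25 ± 0.38 at 12 h was called (adjusted p = 0.0322). That call was lost without KD control 1 (adjusted p = 0.0717), KD control 2 (0.128), KD control 3 (0.0677) or KD 12 h 3 (0.219), and also without all 6 libraries numbered 2 (adjusted p = 0.0641). Atf4 was also called higher in KD 24 h with the replicate block (0.80, adjusted p = 0.0425). The NC libraries gave 173, 105 and 197 CPM at 12 h and 152, 113 and 132 CPM at 24 h, overlapping NC control at both times, and the change at 12 h was -0.05 ± 0.37.

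Ddit3, which encodes CHOP, a transcription factor linked to cell death under prolonged stress, rose at 12 h and was lower again at 24 h in both lines. In NC it stood at 45.5, 38.6 and 35.1 CPM at control, 70.2, 67.0 and 53.9 CPM at 12 h and 39.5, 39.7 and 27.8 CPM at 24 h. In KD the values were 25.6, 20.0 and 23.9 CPM, 55.3, 40.5 and 41.8 CPM and 21.0, 23.0 and 19.8 CPM at the same times. In both lines the libraries at 12 h were all above those at control and above those at 24 h. Ddit3 rose by 0.68 ± 0.19 in NC 12 h (adjusted p = 0.0166) and by 0.99 ± 0.19 in KD 12 h (adjusted p = 0.000713). From 12 h to 24 h it changed by -0.84 ± 0.19 in NC (adjusted p = 0.0143) and by -1.11 ± 0.19 in KD (adjusted p = 0.000883). In the lines compared at control, Ddit3 was lower in KD by -0.78 ± 0.19 (adjusted p = 0.0306). The rise in NC was lost without NC control 2 (adjusted p = 0.0635), NC control 3 (0.0942), NC 12 h 1 (0.0795) or NC 12 h 2 (0.0606), and also without all 6 libraries numbered 2 (adjusted p = 0.128). The decline in NC was lost without NC 12 h 1 (adjusted p = 0.0781), NC 12 h 2 (0.0508) or NC 24 h 3 (0.0781), and also with the other groups left out (adjusted p = 0.0599) and without all 6 libraries numbered 2 (0.0695). The difference between the lines at control was lost in 5 of the 18 fits that each left out 1 library, those without NC control 1 or 2 or KD control 1, 2 or 3 (adjusted p 0.0597 to 0.148), and also with the other groups left out (adjusted p = 0.0967) and without all 6 libraries numbered 2 (0.247). Part of its exons, 10.9%, overlaps other annotated genes, including Mars on the other strand, and the sources used here do not give the strand setting of the counting, so reads of overlapping genes may be mixed.

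Cebpb, a C/EBP partner of ATF4 that is also induced in inflammation, rose at 12 h in both lines. It stood at 70.7, 91.9 and 53.3 CPM in NC control and 143, 176 and 154 CPM in NC 12 h, a rise of 1.13 ± 0.25 (adjusted p = 0.00357). In KD it stood at 66.2, 58.7 and 31.0 CPM at control, 155, 141 and 91.0 CPM at 12 h and 135, 139 and 125 CPM at 24 h. Its KD rises were 1.31 ± 0.25 at 12 h (adjusted p = 0.00075) and 1.35 ± 0.25 at 24 h (adjusted p = 0.000893), without overlap with KD control. In NC 24 h it was at 138, 85.5 and 128 CPM and not called. These 3 calls were kept in every alternative, and 20.7% of the exon bases of Cebpb overlap Tmem189 on the other strand.

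Cebpg, the C/EBP family member that pairs with ATF4 on composite elements, was lower in KD control and was near the NC level at 12 h. It stood at 126, 169.9 and 169.9 CPM in NC control and 82.0, 94.4 and 92.8 CPM in KD control, without overlap, a difference of -0.79 ± 0.15 (adjusted p = 0.00437). KD 12 h had 144, 155 and 157 CPM and KD 24 h had 135, 142 and 122 CPM, and all of them were above KD control. The rises were 0.76 ± 0.15 (adjusted p = 0.000835) and 0.57 ± 0.15 (adjusted p = 0.0152). NC 12 h and NC 24 h, at 132, 147 and 164 CPM and 139, 158 and 136 CPM, overlapped NC control. The difference at control was lost with the other groups left out (adjusted p = 0.053) and without all 6 libraries numbered 2 (0.0549). The rise at 24 h was lost without KD control 1 (adjusted p = 0.0865), KD control 3 (0.054), KD 24 h 1 (0.0587) or KD 24 h 2 (0.0847), and also with no filter on low counts (adjusted p = 0.0611) and without all 6 libraries numbered 2 (0.0771).

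None of the other 3 tested regulators was called in any of the 12 comparisons. Atf3, a stress-induced repressor of the same family, had at most a few CPM: 3.76, 2.47 and 2.04 in NC control, 0.675, 1.08 and 2.18 in NC 12 h and 1.77, 0.941 and 1.29 in NC 24 h. KD control had 1.49, 2.59 and 1.66 CPM, KD 12 h had 1.51, 1.66 and 1.26 CPM and KD 24 h had 0.701, 1.26 and 0.476 CPM, and all 3 KD 24 h libraries were below KD control without passing the test. Jdp2, a repressor that competes at the same elements, lay between 15.2 and 26.2 CPM over the 18 libraries. Nupr1, a small stress-induced nuclear protein, lay between 1.46 and 4.95 CPM.

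Trib3, a pseudokinase that binds ATF4 and CHOP and limits their activity, showed the largest difference of the set. It stood at 508, 352 and 469 CPM in NC control and at 78.1, 52.9 and 86.1 CPM in KD control, so the highest KD library was far below the lowest NC library. The difference was -2.62 ± 0.25, or 6.13-fold lower in KD (adjusted p = 1.33e-06). With oxyhemoglobin the KD libraries had 389, 255 and 394 CPM at 12 h and 183, 135 and 175 CPM at 24 h, all above KD control. Trib3 rose by 2.26 ± 0.25 at 12 h, or 4.79-fold (adjusted p = 7.41e-07), and by 1.19 ± 0.24 at 24 h (adjusted p = 0.00203), and fell by 1.07 ± 0.24 from 12 h to 24 h (adjusted p = 0.0083). The NC libraries had 493, 302 and 487 CPM at 12 h, overlapping NC control, and 323, 189 and 246 CPM at 24 h, all below NC control. Only the NC difference at 24 h was called, at -0.81 ± 0.24 (adjusted p = 0.0367), and with the replicate block the decline from 12 h to 24 h in NC was called as well (-0.75, adjusted p = 4.08e-08). The NC call at 24 h was lost without NC control 1 (adjusted p = 0.0983), NC control 3 (0.0872), NC 24 h 2 (0.135) or NC 24 h 3 (0.0973).

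**Figure D4:**
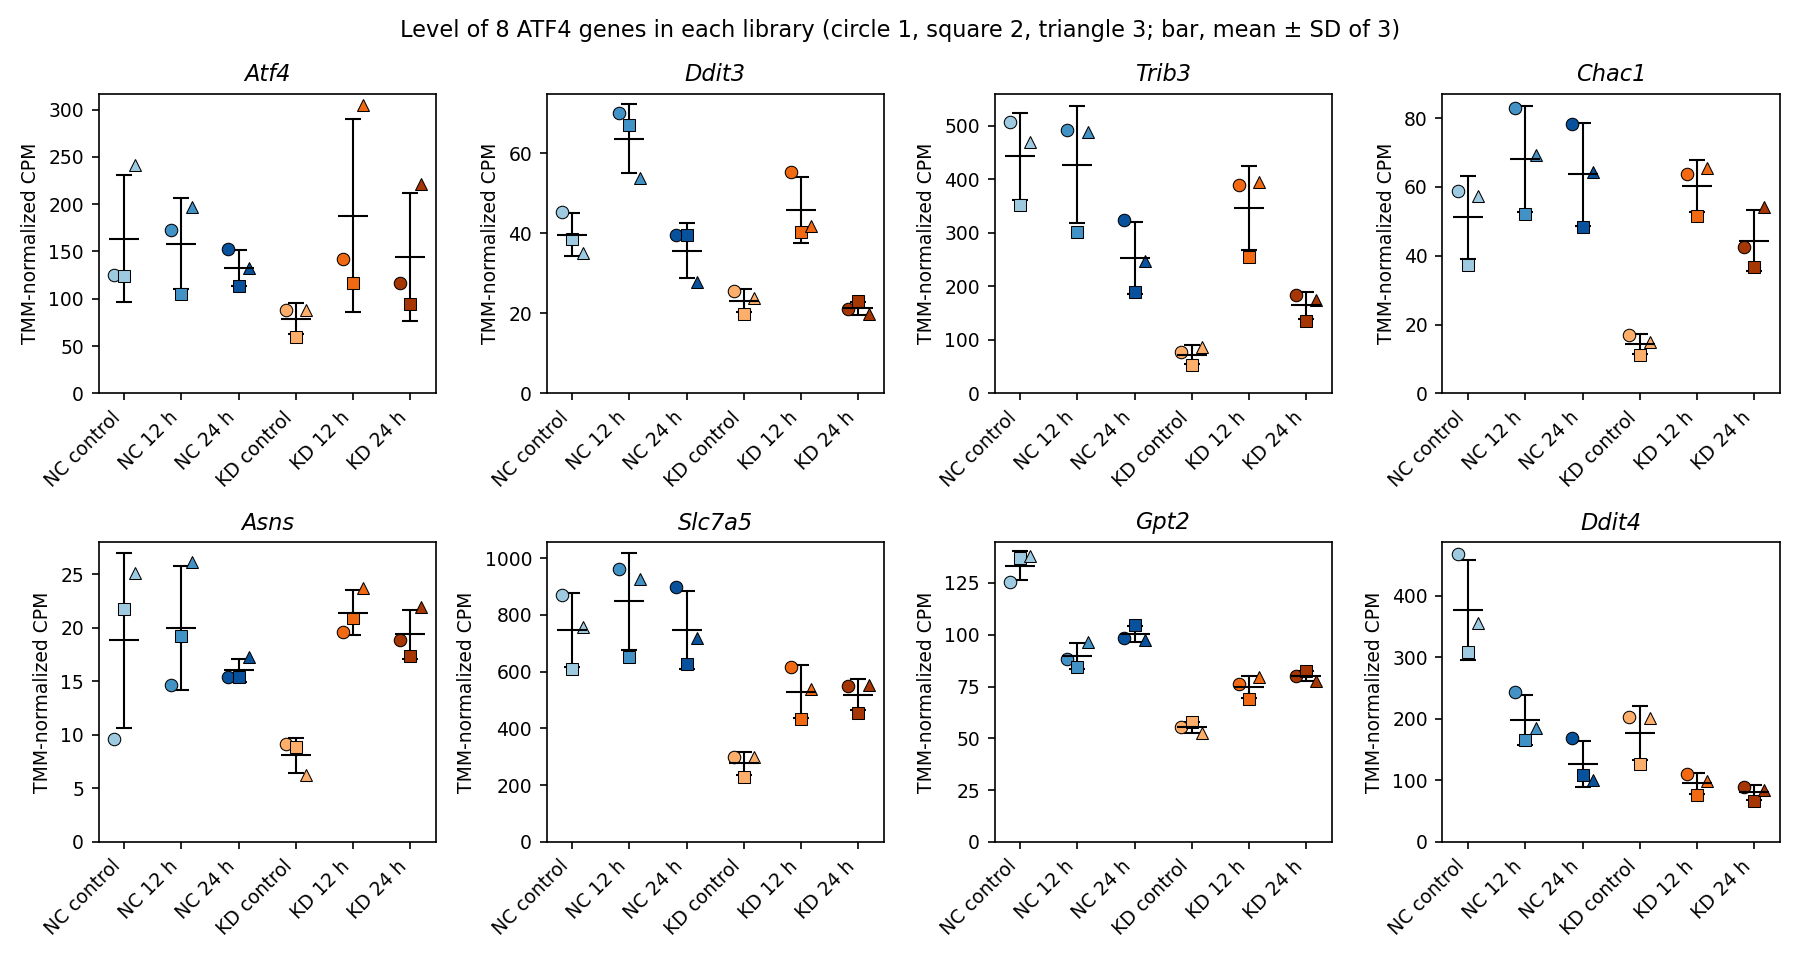
TMM-scaled CPM (vertical axes from 0) of Atf4, Ddit3, Trib3, Chac1, Asns, Slc7a5, Gpt2 and Ddit4 in each library (points) by time with oxyhemoglobin and line, with the mean and SD of 3 libraries. Trib3 in KD control lies between 52.9 and 86.1 CPM, below all other libraries, and Ddit4 is lower after oxyhemoglobin in both lines.

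Ppp1r15a, which encodes GADD34, the phosphatase subunit that removes the phosphate from eIF2, was low throughout. It stood at 7.09, 9.07 and 5.51 CPM in NC control and 1.92, 1.68 and 2.7 CPM in KD control, without overlap, a difference of -1.79 ± 0.42 (adjusted p = 0.0229). KD 12 h had 4.75, 5.18 and 3.36 CPM and KD 24 h had 5.43, 2.93 and 3.33 CPM, and NC 12 h and NC 24 h had 11.3, 5.03 and 4.56 CPM and 14.4, 13.0 and 6.08 CPM. Every treated KD library was above every KD control library, but the change at 12 h of 1.09 ± 0.44 was not called (adjusted p = 0.103), while it was called with the replicate block (1.08, adjusted p = 0.0291). The difference at control was lost without NC control 2 (adjusted p = 0.11), KD control 1 (0.0965) or KD control 2 (0.115), and also without all 6 libraries numbered 2 (adjusted p = 0.316).

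Eif4ebp1, a repressor of cap-dependent translation, rose in KD. Its mean was 43.6 ± 5.24 CPM in KD control, 81.3 ± 28.4 CPM in KD 12 h and 89.4 ± 8.55 CPM in KD 24 h (SD, n = 3 each). The rises were 0.90 ± 0.23 at 12 h (adjusted p = 0.0074) and 1.04 ± 0.23 at 24 h (adjusted p = 0.00357), and the first was lost without KD 12 h 1 (adjusted p = 0.0834). In NC 12 h it was called only with the replicate block (0.45, adjusted p = 0.0193).

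Ddit4, or REDD1, an inhibitor of mTORC1 signalling, was the only member called lower against control in both lines. NC libraries had 467, 309 and 355 CPM at control, 243, 166 and 185 CPM at 12 h and 169, 109 and 101 CPM at 24 h. KD libraries had 203, 127 and 201 CPM, 109.9, 76.9 and 99.2 CPM and 89.5, 67.2 and 84.6 CPM. In each line the treated libraries were all below their control libraries. The falls were -0.93 ± 0.22 and -1.58 ± 0.23 in NC at 12 h and 24 h (adjusted p = 0.00677 and 6.74e-05), and -0.89 ± 0.23 and -1.14 ± 0.23 in KD (adjusted p = 0.00791 and 0.00165). These 4 calls were kept in every alternative. KD was below NC at control by -1.09 ± 0.23 (adjusted p = 0.00785) and at 12 h by -1.05 ± 0.23 (adjusted p = 0.0163), without overlap at either time. The difference at control was lost without KD control 2 (adjusted p = 0.0557). The difference at 12 h was lost without NC 12 h 1 (adjusted p = 0.116), KD 12 h 2 (0.117) or KD 12 h 3 (0.0624).

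Sesn2, a stress-induced inhibitor of mTORC1 that senses leucine, was lower in KD control, rose in KD at 12 h and fell again by 24 h. It stood at 317, 184 and 218 CPM in NC control and 124, 95.1 and 120.0 CPM in KD control, a difference of -1.08 ± 0.21 (adjusted p = 0.00581). KD 12 h had 357, 220.2 and 277 CPM, all above KD control, a rise of 1.33 ± 0.22 (adjusted p = 9.55e-05). KD 24 h had 184, 154 and 162 CPM, all below KD 12 h, a fall of -0.77 ± 0.21 from 12 h (adjusted p = 0.0374). NC 12 h and NC 24 h, at 330.5, 205 and 296 CPM and 219, 173 and 219 CPM, overlapped NC control. The fall from 12 h to 24 h was lost in 5 of the 18 fits that each left out 1 library, those without KD 12 h 1 or 3 or KD 24 h 1, 2 or 3 (adjusted p 0.0645 to 0.219). Sesn2 was with the replicate block also called higher in KD 24 h against control (0.57, adjusted p = 2.91e-05) and lower in NC from 12 h to 24 h (-0.43, adjusted p = 0.00197).

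Eif2ak3, which encodes PERK, the eIF2 kinase of the endoplasmic reticulum, was not called in any of the 12 comparisons. It stood at 30.0, 32.7 and 24.5 CPM in NC control and 34.8, 37.7 and 39.3 CPM in KD control, so that, unlike the targets, it was higher in every KD control library than in every NC control library. After oxyhemoglobin it stood at 33.1, 30.0 and 33.9 CPM in NC 12 h and 40.4, 31.4 and 34.3 CPM in KD 12 h. At 24 h the values were 22.3, 24.1 and 25.8 CPM in NC and 38.4, 23.4 and 31.9 CPM in KD. Eif2s2, the beta subunit of eIF2, had a mean of 25.0 ± 7.2 CPM in NC control and 14.9 ± 1.58 CPM in KD control (SD, n = 3 each), and its rise in KD 12 h was called only with the replicate block (0.55, adjusted p = 0.0438).

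Among the amino acid transporters, Slc7a5, the light chain of the leucine transporter LAT1, changed most. It stood at 870.0, 609.9 and 756 CPM in NC control and 301, 229 and 301 CPM in KD control, without overlap, a difference of -1.43 ± 0.20 (adjusted p = 0.000109). In KD it stood at 617, 432 and 539.9 CPM at 12 h and 550.1, 456 and 551 CPM at 24 h, all above KD control. The rises were 0.94 ± 0.19 (adjusted p = 0.00129) and 0.91 ± 0.19 (adjusted p = 0.00287). NC libraries stayed within overlapping ranges, with 962, 652 and 928 CPM at 12 h and 897, 627 and 717 CPM at 24 h. The KD libraries thus remained below the NC libraries at both later times, without overlap. At 12 h the difference between the lines of -0.68 ± 0.19 was not called (adjusted p = 0.0832), but it was called by DESeq2, with no filter on low counts, without NC 12 h 2 and without all 6 libraries numbered 2. It was also called with the replicate block (-0.67, adjusted p = 1.65e-07).

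Slc7a1, a carrier of arginine and lysine, had a mean of 668 ± 86.8 CPM in KD control and 1146 ± 166 CPM in KD 12 h (SD, n = 3 each), a rise of 0.78 ± 0.18 (adjusted p = 0.00301). With the replicate block it was also called in KD 24 h (0.47, adjusted p = 1.64e-05) and in NC 12 h (0.25, adjusted p = 0.0175), and lower from 12 h to 24 h in NC (-0.44, adjusted p = 0.000121) and in KD (-0.31, adjusted p = 0.00574). Slc1a5, the glutamine carrier ASCT2, went from 33.7 ± 6.92 CPM in KD control to 55.1 ± 9.28 CPM in KD 24 h (SD, n = 3 each), a rise of 0.71 ± 0.19 (adjusted p = 0.0198). That call was lost without KD control 2 (adjusted p = 0.126), KD control 3 (0.0595) or KD 24 h 3 (0.132), and also without all 6 libraries numbered 2 (adjusted p = 0.085). Slc1a5 was called in KD 12 h as well with the replicate block (0.56, adjusted p = 0.00188). Slc38a2 (the carrier SNAT2), Slc3a2 (the heavy chain that LAT1 needs) and Slc6a9 (a glycine carrier) were not called in any of the 12 comparisons. Slc38a2 was called with the replicate block in NC 12 h (-0.22, adjusted p = 0.0384), in NC 24 h (-0.27, adjusted p = 0.0154) and in KD 24 h (0.24, adjusted p = 0.027). Slc6a9 was called with it in NC 24 h (-0.91, adjusted p = 0.0492), and Slc3a2 between the lines at 12 h (-0.54, adjusted p = 0.0495). Of the exon bases of Slc6a9, 30.2% overlap another gene, so its counts are uncertain.

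Chac1, an enzyme that breaks down glutathione and a sensitive ATF4 target, was lower in KD control and rose in KD at both times. It stood at 58.8, 37.3 and 57.4 CPM in NC control and 17.1, 11.3 and 15.0 CPM in KD control, without overlap, a difference of -1.83 ± 0.24, or 3.55-fold lower in KD (adjusted p = 8.15e-05). KD 12 h had 63.7, 51.6 and 65.4 CPM and KD 24 h had 42.6, 36.6 and 54.1 CPM, all above KD control. The rises were 2.07 ± 0.24, or 4.19-fold (adjusted p = 1.74e-06), and 1.63 ± 0.24 (adjusted p = 5.79e-05). NC 12 h and NC 24 h had 82.8, 52.1 and 69.4 CPM and 78.3, 48.2 and 64.4 CPM, overlapping NC control, and the NC change at 12 h was called only with the replicate block (0.42, adjusted p = 0.00981). From 12 h to 24 h Chac1 was called lower in KD only with the block (-0.45, adjusted p = 0.0127). Its calls at control, KD 12 h and KD 24 h were kept in every alternative.

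Asns, asparagine synthetase, stood at 9.6, 21.8 and 25.1 CPM in NC control and 9.18, 8.84 and 6.24 CPM in KD control. The groups did not overlap, though NC control 1 lay only just above KD control, and the difference of -1.22 ± 0.29 was called (adjusted p = 0.0229). KD 12 h had 19.7, 20.9 and 23.7 CPM and KD 24 h had 18.9, 17.4 and 21.9 CPM, without overlap with KD control. The rises were 1.40 ± 0.29 (adjusted p = 0.00118) and 1.25 ± 0.29 (adjusted p = 0.00531). NC 12 h and NC 24 h, at 14.6, 19.2 and 26.2 CPM and 15.4, 15.4 and 17.3 CPM, overlapped NC control. The difference at control was lost in 5 of the 18 fits that each left out 1 library, those without NC control 2 or 3 or KD control 1, 2 or 3 (adjusted p 0.055 to 0.165), and also with the other groups left out (adjusted p = 0.13) and without all 6 libraries numbered 2 (0.247).

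Gpt2, the mitochondrial alanine aminotransferase, moved in opposite directions in the lines. NC libraries had 125, 137 and 138 CPM at control, 88.5, 84.2 and 96.7 CPM at 12 h and 98.5, 105 and 97.6 CPM at 24 h. KD libraries had 55.5, 57.8 and 52.6 CPM, 76.2, 68.9 and 79.4 CPM and 80.2, 82.4 and 77.9 CPM. Treated NC libraries were all below NC control and treated KD libraries were all above KD control, and at each time KD lay below NC. Gpt2 fell by 0.57 ± 0.13 in NC 12 h (adjusted p = 0.00508) and rose by 0.44 ± 0.14 in KD 12 h (adjusted p = 0.029) and 0.54 ± 0.13 in KD 24 h (adjusted p = 0.0114). The difference at control was -1.27 ± 0.14 (adjusted p = 4.1e-06). The KD rise at 12 h was lost in 5 of the 18 fits that each left out 1 library, those without KD control 1, 2 or 3 or KD 12 h 1 or 3 (adjusted p 0.0516 to 0.119), and also with no filter on low counts (adjusted p = 0.205), with the other groups left out (0.0988) and without all 6 libraries numbered 2 (0.0515). The KD rise at 24 h was lost without KD control 3 (adjusted p = 0.0698) or KD 24 h 2 (0.0563), and also with no filter on low counts (adjusted p = 0.118) and without all 6 libraries numbered 2 (0.0578). The NC difference at 24 h was called with the replicate block (-0.41, adjusted p = 0.00221).

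Got1, the cytosolic aspartate aminotransferase, was lower in KD at every time and was not called over time in either line. It stood at 139, 139.7 and 134 CPM in NC control and 73.4, 67.7 and 80.9 CPM in KD control, a difference of -0.90 ± 0.15 (adjusted p = 0.000875). At 12 h it stood at 183, 135 and 175 CPM in NC and 96.1, 86.1 and 92.7 CPM in KD, a difference of -0.84 ± 0.14 (adjusted p = 0.00322). At 24 h it stood at 125, 113 and 118 CPM in NC and 86.2, 80.8 and 74.6 CPM in KD, and the difference of -0.56 ± 0.14 was just outside the threshold (adjusted p = 0.0564). The lines did not overlap at any of the 3 times. Got1 with the replicate block was called higher in KD 12 h against control (0.31, adjusted p = 0.021) and lower in NC from 12 h to 24 h (-0.47, adjusted p = 0.000916).

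Pck2, the mitochondrial phosphoenolpyruvate carboxykinase, had a mean of 76.8 ± 12.1 CPM in NC control, 42.6 ± 7.5 CPM in NC 12 h and 37.2 ± 5.5 CPM in KD control (SD, n = 3 each). It fell in NC 12 h by 0.85 ± 0.21 (adjusted p = 0.0074) and was lower in KD control by 1.04 ± 0.21 (adjusted p = 0.00634). With the replicate block it was also called in NC 24 h (-0.62, adjusted p = 0.000457). Pycr1, the last enzyme of proline synthesis, went from 19.0 ± 4.15 CPM in NC control to 11.3 ± 2.26 CPM in NC 12 h (SD, n = 3 each), a fall of 0.76 ± 0.23 (adjusted p = 0.0293). That call was lost without NC control 1 (adjusted p = 0.11), NC control 3 (0.0644), NC 12 h 2 (0.112) or NC 12 h 3 (0.0717), and also with no filter on low counts (adjusted p = 0.0544), with the other groups left out (0.0919) and without all 6 libraries numbered 2 (0.0536). From 12 h to 24 h in NC it was called higher with the block (0.80, adjusted p = 0.00249). Aldh18a1, the first enzyme of proline synthesis, was not called in any comparison and lay between 3.33 and 10.0 CPM over the 18 libraries.

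Stc2, a secreted glycoprotein induced by endoplasmic reticulum stress, had a mean of 14.9 ± 2.29 CPM in NC control, 6.26 ± 3.25 CPM in NC 12 h and 4.05 ± 2.14 CPM in KD control (SD, n = 3 each). It fell in NC 12 h by 1.26 ± 0.37 (adjusted p = 0.0246) and was lower in KD control by 1.88 ± 0.38 (adjusted p = 0.00704). The fall in NC was lost without NC control 1 (adjusted p = 0.0636), NC control 3 (0.0553) or NC 12 h 2 (0.102), and also without all 6 libraries numbered 2 (adjusted p = 0.107). The difference at control was lost without KD control 1 (adjusted p = 0.0569). Gdf15, a secreted stress cytokine and a widely used marker of the response, lay between 0.152 and 3.04 CPM and was not called in any comparison.

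The difference between the lines in their change with oxyhemoglobin was tested directly, as an interaction of line and time. At 12 h the interaction was called for 2 members, Trib3 and Gpt2, and at 24 h for Trib3 alone, all with the more positive change in KD, where 0.0625% of all tested genes were called higher at 12 h and 0.025% at 24 h, and 0.0125% and 0.00625% lower. For Trib3 it was 2.31 ± 0.34 at 12 h (adjusted p = 0.00578) and 1.99 ± 0.34 at 24 h (adjusted p = 0.0252), and for Gpt2 it was 1.01 ± 0.19 at 12 h (adjusted p = 0.0328). Chac1 was just outside the threshold at 12 h, at 1.65 ± 0.33 (adjusted p = 0.0532). The median interaction over the 29 members was 0.65 at both times, and the interactions use the same control libraries as the comparisons above. The Trib3 call at 12 h was kept in every alternative. The Trib3 call at 24 h was lost in 8 of the 18 fits that each left out 1 library, those without NC control 1 or 3, NC 24 h 2 or 3, KD control 1 or 2 or KD 24 h 1 or 3 (adjusted p 0.0582 to 0.0829). The Gpt2 call at 12 h was lost in 11 of the 18 fits that each left out 1 library, those without NC control 2 or 3, NC 12 h 1, 2 or 3, KD control 1, 2 or 3 or KD 12 h 1, 2 or 3 (adjusted p 0.0558 to 0.136), and also with no filter on low counts (adjusted p = 0.114), with the other groups left out (0.114) and without all 6 libraries numbered 2 (0.21). DESeq2 called 4 members at 12 h and 3 at 24 h, all higher, where it called 51 and 38 of all genes in either direction. At an unadjusted p under 0.05 in edgeR, 12 members were higher and none lower at 12 h, where 5.65% of all genes passed. At 24 h, 13 were higher and none lower, where 4.63% of all genes passed. At the adjusted threshold of the reported fit, a rise in KD without one in NC is for the other members not shown to differ between the lines.

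After oxyhemoglobin fewer members were called between the lines than at control. At 12 h, 2 of the 29 members, Ddit4 and Got1, were called lower in KD and none higher, where 1.1% of all tested genes were called lower and 0.5% higher. The median over the members was -0.12. At an unadjusted p under 0.05, which 12.8% of all genes passed, 5 members were lower in KD at 12 h and none was higher. Leaving out NC 12 h 1, KD 12 h 2 or KD 12 h 3 left 1 called member. With the replicate block 6 members were called lower at 12 h, where 6.44% of all genes were, adding Ddit3 (-0.48, adjusted p = 0.0145), Trib3 (-0.30, adjusted p = 0.025), Slc7a5 and Slc3a2. At 24 h no member was called by edgeR, where 0.925% of all genes were called lower and 0.469% higher. There 1 member was higher and 9 were lower at an unadjusted p under 0.05, which 12.2% of all genes passed. DESeq2 called 3 lower, where it called 410 of all genes in either direction. The 24 h count was 2 without NC control 1 or NC 24 h 3 and 1 without NC 12 h 1 or NC 12 h 2. The median at 24 h was -0.19.

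Averaged over the 3 times, 13 members were lower in KD and none was called higher (edgeR had 1 higher at an unadjusted p under 0.05), where 5.98% of all tested genes were called lower and 4.01% higher, and the median over the members was -0.33. This average includes the control libraries and is not separate from the comparison at control. The smallest adjusted p-values belonged to Got1 (-0.77 ± 0.08, adjusted p = 2.21e-06), Trib3 (-1.18 ± 0.14, adjusted p = 5.14e-06), Gpt2 (-0.62 ± 0.08, adjusted p = 1.07e-05) and Slc7a5 (-0.88 ± 0.11, adjusted p = 1.29e-05). Of the 13 calls, 9 were kept in every alternative, namely Ddit3, Trib3, Ppp1r15a, Ddit4, Slc7a5, Gpt2, Got1, Chac1 and Stc2. Cebpg was lost in 12 of the 18 fits that each left out 1 library, those without NC control 2 or 3, NC 12 h 2 or 3, NC 24 h 2, KD control 1 or 3, KD 12 h 1, 2 or 3 or KD 24 h 1 or 3 (adjusted p 0.053 to 0.0909), and also with no filter on low counts (adjusted p = 0.15) and without all 6 libraries numbered 2 (0.138). Sesn2 was lost without NC 12 h 1 (adjusted p = 0.055). Eif2s2 was lost in 7 of the 18 fits that each left out 1 library, those without NC control 2 or 3, NC 12 h 1, NC 24 h 1, KD control 3, KD 12 h 1 or KD 24 h 2 (adjusted p 0.0525 to 0.08). Pck2 was lost in 12 of the 18 fits that each left out 1 library, those without NC control 1 or 3, NC 12 h 1 or 3, NC 24 h 1 or 3, KD control 2 or 3, KD 12 h 1 or 2 or KD 24 h 1 or 2 (adjusted p 0.0573 to 0.0878), and also without all 6 libraries numbered 2 (adjusted p = 0.0698).

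From 12 h to 24 h, 3 members fell in KD (Ddit3, Trib3 and Sesn2) and none rose, where 1.46% of all tested genes were called lower and 2.81% higher. In NC only Ddit3 was called lower and none higher, where 1.13% of all genes were called lower and 1.63% higher. With the replicate block, 5 members were called lower in KD, where 5.48% of all genes were, and 6 lower and 1 higher in NC, where 6.12% were lower and 5.39% higher, adding in NC Trib3, Sesn2, Slc7a1 and Got1 as above and Ddit4 (-0.66, adjusted p = 1.26e-05). The single NC call was absent without NC 12 h 1 or NC 24 h 3, and the count was 2 without NC 12 h 2 and 3 without NC 24 h 1.

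Scaled per kilobase of merged exons of GENCODE M21 and averaged over the 18 libraries, the most abundant members were Slc7a5 at 165.0 CPM per kb, Trib3 at 134 CPM per kb and Slc38a2 at 103 CPM per kb. The order differed by group, and Ddit4 was the highest in both control groups, at 215 CPM per kb in NC and 101 CPM per kb in KD. Atf4 stood at 61.2 CPM per kb and Ddit3 at 22.3 CPM per kb. The lowest of the tested members were Slc6a9 at 0.913 CPM per kb, Atf3 at 0.744 CPM per kb and Gdf15 at 0.634 CPM per kb. The 4 untested members were Atf5, with 102 counts over all libraries and 1 to 13 per library, Slc1a4 with 17 counts, Cth with 2 and Vldlr with 0. Atf5 and Slc1a4 encode an ATF4-related factor and a neutral amino acid carrier, Cth the last enzyme of cysteine synthesis from methionine and Vldlr a lipoprotein receptor.

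Other genes of the pathway were described from 10 lists of 115 genes in all. Cytosolic aminoacyl-tRNA synthetases, the enzymes that load tRNAs and are known ATF4 targets, were called in numbers as well: 8 of 20 were lower in KD control and 11 of 20 rose in KD 12 h, with none in the other direction, where 1.3% and 7.93% of all tested genes were called in those directions. Their medians were -0.60 and 0.54, and Aars, the alanyl-tRNA synthetase, had -0.83 ± 0.21 at control (adjusted p = 0.0373) and 1.39 ± 0.21 in KD 12 h (adjusted p = 5.3e-05). The Aars call at control was lost in 5 of the 18 fits that each left out 1 library, those without NC control 1 or 3 or KD control 1, 2 or 3 (adjusted p 0.052 to 0.157), and also with the other groups left out (adjusted p = 0.0692). In NC 12 h, 2 of 20 rose, where 6.69% of all genes were called higher. With the replicate block 2 were called higher and 2 lower, where 13.7% and 11% of all genes were. The 8 at control became 5 without NC control 1, 4 without NC control 3, 3 without KD control 1 or 2 and 2 without KD control 3. The 11 in KD 12 h became 6 without KD control 2 or KD 12 h 1 and 7 without KD 12 h 3. The 2 in NC 12 h became 1 without NC control 2 or 3, NC 12 h 1 or 3, KD control 3 or KD 24 h 3.

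In the serine and one-carbon list of 7 genes, 4 were lower in KD control, 2 rose in KD 12 h and 2 fell in NC 12 h, where 1.3%, 7.93% and 5.55% of all tested genes were called. Aldh1l2, a mitochondrial folate enzyme, stood at 80.5, 87.9 and 84.3 CPM in NC control, 48.0, 37.2 and 46.0 CPM in NC 12 h and 59.8, 59.1 and 63.7 CPM in NC 24 h. In KD it stood at 29.7, 20.7 and 19.8 CPM at control, 40.0, 31.6 and 35.7 CPM at 12 h and 60.8, 52.7 and 59.3 CPM at 24 h. As with Gpt2, the treated libraries were all below control in NC and all above control in KD. The interaction was called at both times, at 1.56 ± 0.24 (adjusted p = 0.00915) and 1.77 ± 0.24 (adjusted p = 0.00173). The interaction at 12 h was lost with the other groups left out (adjusted p = 0.0676) and without all 6 libraries numbered 2 (0.112). The interaction at 24 h was lost without all 6 libraries numbered 2 (adjusted p = 0.0611). Mthfd2, a folate enzyme of the same compartment, was lower in KD control by 1.22 ± 0.17 (adjusted p = 0.000105) and rose by 1.37 ± 0.17 in KD 12 h (adjusted p = 2.87e-06). The 4 at control became 2 without NC control 3 or any of KD control 1, 2 and 3, the 2 in KD 12 h became 1 without KD control 2 or 3 or KD 12 h 1, and the 2 in NC 12 h became 1 without NC control 3 or NC 12 h 2.

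The IRE1 and ATF6 arms of the unfolded protein response, which act beside PERK, mostly rose at 12 h in both lines. In this list of 15 genes, 10 rose in NC 12 h with a median of 1.37 and 13 rose in KD 12 h with a median of 1.06, and none fell, where 6.69% and 7.93% of all tested genes were called higher. At 24 h, 4 were called higher in NC and none in KD, where 4.66% and 5.5% of all genes were. From 12 h to 24 h 6 fell in NC and 8 in KD, where 1.13% and 1.46% of all genes were called lower. The 4 at 24 h became 2 without NC 24 h 3. The 6 became 3 without NC 12 h 1 or NC 24 h 2, and the 8 became 4 without KD 12 h 1 or KD 24 h 2 and 5 without KD 12 h 3, KD 24 h 1 or KD 24 h 3. With the replicate block 9 were called higher and 1 lower at 24 h in NC, where 10.6% and 8.3% of all genes were. In KD 24 h it called 7 higher, where 12.1% of all genes were. From 12 h to 24 h the block called 11 lower and 1 higher in NC, where 6.12% and 5.39% of all genes were. The folding factors Sdf2l1 (1.77 ± 0.19 in NC and 1.01 ± 0.18 in KD), Pdia4 (1.68 ± 0.21 and 1.30 ± 0.21) and Calr (1.59 ± 0.20 and 1.06 ± 0.20) were called in both lines at 12 h. At control, this list had 1 gene higher and 2 lower in KD and a median of 0.01, where 0.763% of all genes were called higher and 1.3% lower. Slc7a11, the cystine carrier that is a target of both ATF4 and NRF2, rose 5.96-fold in NC 12 h and 16.0-fold in KD 12 h (adjusted p = 3.53e-08 and 5.68e-11), and the interaction did not pass the test (1.43 ± 0.30, adjusted p = 0.0825).

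Upstream of ATF4, in the list of the mitochondrial relay to the kinase HRI (Dele1, Oma1, Yme1l1 and Opa1), no gene was called in any of the 12 comparisons without the replicate block. With the block 1 of the 4 was called higher and 1 lower in NC 12 h, 1 higher in NC 24 h, 1 higher in NC 24 h against 12 h and 2 lower in KD 12 h. Of all tested genes the block called 13.7% higher and 11% lower in NC 12 h and 10.6% higher in NC 24 h. It called 5.39% higher in NC 24 h against 12 h and 13.6% lower in KD 12 h. Of the 3 further eIF2 kinases, Eif2ak2, which encodes PKR, fell by 0.46 ± 0.14 in KD 24 h against control (adjusted p = 0.0478) and by 0.58 ± 0.15 in NC from 12 h to 24 h (adjusted p = 0.0323). The first of these calls was lost in 10 of the 18 fits that each left out 1 library, those without NC control 3, NC 12 h 1 or 3, KD control 1 or 2, KD 12 h 1 or 3 or KD 24 h 1, 2 or 3 (adjusted p 0.0528 to 0.197), and also with no filter on low counts (adjusted p = 0.136) and without all 6 libraries numbered 2 (0.175). The second was lost in 6 of the 18 fits that each left out 1 library, those without NC 12 h 1, 2 or 3 or NC 24 h 1, 2 or 3 (adjusted p 0.0541 to 0.161), and also with no filter on low counts (adjusted p = 0.0839), with the other groups left out (0.135) and without all 6 libraries numbered 2 (0.0988). Over all times Eif2ak2 was called higher in KD, at 0.28 ± 0.08 (adjusted p = 0.0329). This call was lost in 8 of the 18 fits that each left out 1 library, those without NC control 1 or 3, NC 12 h 1 or 3, NC 24 h 1, KD control 2, KD 12 h 2 or KD 24 h 2 (adjusted p 0.053 to 0.0759), and also with no filter on low counts (adjusted p = 0.0644) and without all 6 libraries numbered 2 (0.0723).

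Eif2s1, the subunit of eIF2 that is phosphorylated, rose by 0.57 ± 0.14 in NC 12 h (adjusted p = 0.00738) and by 0.44 ± 0.14 in KD 12 h (adjusted p = 0.0316). The NC call was lost without NC 12 h 3 (adjusted p = 0.0657), and also with the other groups left out (adjusted p = 0.0535). The KD call was lost in 6 of the 18 fits that each left out 1 library, those without KD control 1, 2 or 3 or KD 12 h 1, 2 or 3 (adjusted p 0.0518 to 0.129), and also with no filter on low counts (adjusted p = 0.137), with the other groups left out (0.0671) and without all 6 libraries numbered 2 (0.0566). At 24 h it was called higher in NC, at 0.49 ± 0.14 (adjusted p = 0.0295). It was lost without NC control 1 (adjusted p = 0.0618), NC control 2 (0.102), NC control 3 (0.0846) or NC 24 h 3 (0.167), and also with no filter on low counts (adjusted p = 0.14), with the other groups left out (0.169) and without all 6 libraries numbered 2 (0.0751). In KD 24 h it was called higher at 0.48 ± 0.14 (adjusted p = 0.0276). That call was lost in 6 of the 18 fits that each left out 1 library, those without KD control 1, 2 or 3 or KD 24 h 1, 2 or 3 (adjusted p 0.0667 to 0.122), and also with no filter on low counts (adjusted p = 0.129) and without all 6 libraries numbered 2 (0.0682).

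Eif2b2, a subunit of the exchange factor eIF2B, was called lower in KD control at -1.04 ± 0.27 (adjusted p = 0.0453). That difference was lost in 9 of the 18 fits that each left out 1 library, those without NC control 1, 2 or 3, NC 12 h 3, KD control 1, 2 or 3, KD 12 h 1 or KD 24 h 1 (adjusted p 0.0504 to 0.191), and also with the other groups left out (adjusted p = 0.0534) and without all 6 libraries numbered 2 (0.193). It was called higher in KD 24 h against control at 0.86 ± 0.27 (adjusted p = 0.0492). The rise was lost in 13 of the 18 fits that each left out 1 library, those without NC control 1, 2 or 3, NC 12 h 3, NC 24 h 1 or 2, KD control 1, 2 or 3, KD 12 h 1 or KD 24 h 1, 2 or 3 (adjusted p 0.0527 to 0.212), and also without all 6 libraries numbered 2 (adjusted p = 0.091). Over all times Eif2b2 was called lower in KD, at -0.54 ± 0.15 (adjusted p = 0.0253). The average difference was lost in 7 of the 18 fits that each left out 1 library, those without NC 12 h 1 or 3, NC 24 h 3, KD control 2, KD 12 h 2 or KD 24 h 1 or 2 (adjusted p 0.0512 to 0.0634), and also without all 6 libraries numbered 2 (adjusted p = 0.0514). Eif2s3x, the gamma subunit of eIF2, was likewise called lower, at -0.41 ± 0.12 (adjusted p = 0.038). For Eif2s3x the call was lost in 10 of the 18 fits that each left out 1 library, those without NC control 1 or 3, NC 12 h 1 or 3, NC 24 h 3, KD control 2, KD 12 h 2 or 3 or KD 24 h 2 or 3 (adjusted p 0.0512 to 0.0806).

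Among 12 tested bZIP partners and competitors of ATF4, 5 rose at 12 h in each line and none fell. Of all tested genes, 6.69% were called higher in NC 12 h and 7.93% in KD 12 h. The replicate block called 8 of the 12 higher in KD 12 h, where it called 15.1% of all genes higher. Fosl1, a member of the AP-1 family, was near 0 in both control groups and rose by 3.60 ± 0.53 in NC 12 h (adjusted p = 4.7e-05) and 4.13 ± 0.49 in KD 12 h (adjusted p = 2.16e-06). Cebpd, a C/EBP factor of inflammation, rose by 1.53 ± 0.29 and 2.12 ± 0.30 (adjusted p = 0.00119 and 3.16e-05). In the autophagy list of 12 genes only Sqstm1, the cargo receptor p62, was called at 12 h, with 0.77 ± 0.17 in NC and 1.22 ± 0.17 in KD (adjusted p = 0.00336 and 2.11e-05). Sqstm1 alone is 1 of 12 in each line, beside 6.69% and 7.93% of all genes called higher. With the replicate block 2 autophagy genes were called higher in NC 12 h and 3 in KD 12 h, where 13.7% and 15.1% of all genes were. The list of other stress-induced targets, with 15 genes tested, moved differently from the ATF4 set. In KD 12 h, 2 were called higher and 4 lower, where 7.93% and 8.06% of all genes were, and the median was -0.50. In NC 12 h, 1 was higher and 5 were lower, where 6.69% and 5.55% of all genes were, and the median was -0.36. Between the lines at control, 2 were lower in KD and none higher, where 1.3% and 0.763% of all genes were.

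**Figure D5:**
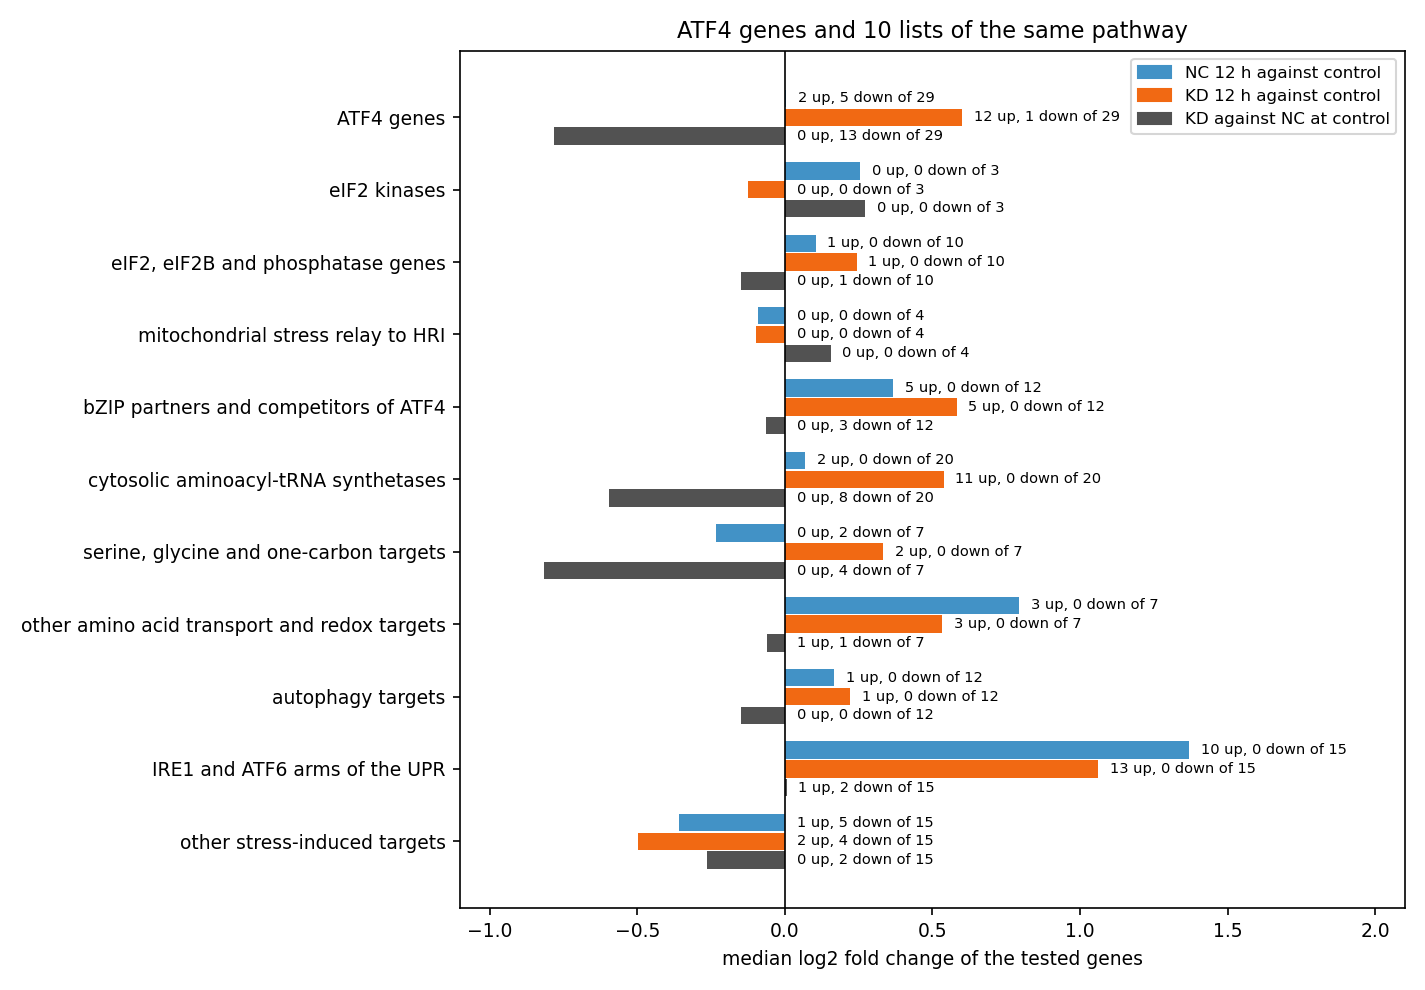
Median log2 fold change over the tested genes of the ATF4 set and of each of the 10 pathway lists, drawn as bars. The comparisons are NC 12 h against control, KD 12 h against control and KD against NC at control. The number called up and down stands beside each bar. The tRNA synthetases lie at -0.60 between the lines at control and at 0.54 in KD 12 h, while the IRE1 and ATF6 list is above 1 at 12 h in both lines.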

How the data were processed

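RNA from BV2 cells was sequenced in 18 libraries, 3 for each of 6 groups taken from the sample titles. The authors deposited whole-number read counts per gene, not normalized, for 55487 genes, along with TPM values, which were used in no test. Per the submitters' processing notes, bcl2fastq, HISAT2 2.2.0, featureCounts and DESeq2 were used with the GRCm38 build. The sources used here do not give the strand setting of the counting. The members and lists were chosen with earlier results of these data known.

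Counts were tested with edgeR 4.0.16 (limma 3.58.1, R 4.3.3): genes were kept by filterByExpr at a minimum count of 10 (15996 of them), scaled by TMM, and fitted with 1 mean per group over all 18 libraries by the robust quasi-likelihood method. P-values were adjusted by Benjamini-Hochberg over the 15996 genes in each of 12 comparisons, with a threshold of 0.05. The procedure was tested on simulated counts. Genes were handled by ID, because Ddit3 stands on 2 IDs, of which 1 had no counts.

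Library totals of 4361313 to 6008810 counts set the precision, and the median biological coefficient of variation was 0.193 over the tested members. Results were recomputed with DESeq2 1.42.0, with RLE or with upper-quartile factors, without the filter, with the library number as a block, with only the compared groups fitted, leaving out all libraries numbered 2, leaving out each library in turn and, added after seeing the data, leaving out the counts of CT010467.2. Libraries of the same number were checked as pairs by correlating their deviations from the group means. Every pair was above 0.1 (0.108 to 0.448) for the comparisons over time and for the lines at 12 h, where block values are given beside the results, while at control and 24 h the lowest pair between the lines was 0.0703 and 0.0946. Per-library values were printed by rule for Atf4, Ddit3, Trib3, Chac1, Asns, Atf3, Eif2ak3 and Ppp1r15a and for the 12 members with the lowest adjusted p, and up to 4 genes of each pathway list with the lowest adjusted p could be named. Positions came from GENCODE M21, promoter windows from RefSeq (GRCm38.p6), both read with Python 3.11.15. The RefSeq table used held no window for Slc7a5, Slc1a5, Eif4ebp1 and Cth.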

Additional observations from a re-analysis of the deposited data

Results flagged for a closer look

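The change with oxyhemoglobin differed between the lines by the interaction term for 2 members and for 1 further gene of the pathway lists. Trib3 had an interaction of 2.31 ± 0.34 at 12 h (adjusted p = 0.00578) and 1.99 ± 0.34 at 24 h (adjusted p = 0.0252). At 12 h the larger change was in KD, while at 24 h Trib3 was above control in KD and below control in NC. Gpt2 had an interaction of 1.01 ± 0.19 at 12 h (adjusted p = 0.0328), with treated libraries below control in NC and above control in KD. Aldh1l2 had an interaction of 1.56 ± 0.24 at 12 h (adjusted p = 0.00915) and 1.77 ± 0.24 at 24 h (adjusted p = 0.00173), with the same opposite directions. These interactions rest on the KD control libraries, which were also the low ones against NC control.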

How the results depend on the processing

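Of 67 member calls over the 12 comparisons, 42 were kept in all 26 alternative fits (18 leaving out 1 library and 8 others), and none was reversed. Of 213 pairs of member and comparison called neither in the reported fit nor in the 8 others, 81 changed sign in some fit. With the libraries paired by number in a replicate block, the members called were 11 in NC 12 h against control (7 without the block), 6 in NC 24 h (2), 7 in NC 24 h against 12 h (1), 5 in KD 24 h against 12 h (3), 6 between the lines at 12 h (2), 9 between the lines at 24 h (0), and 10 and 10, all higher, for the interactions at 12 h (2) and 24 h (1). Over all 15996 tested genes the block called, in the same order, 24.7%, 18.9%, 11.5%, 12.3%, 10.9%, 9%, 2.07% and 1.21%. The 6 of 29 members in NC 24 h were all lower, where the block called 8.3% of all genes lower and 10.6% higher. The block changed no other count by more than 1.5 times. With DESeq2 the counts were 4 in NC 24 h, 4 in NC 24 h against 12 h, 3 between the lines at 24 h, and 4 and 3 for the interactions at 12 h and 24 h. In the same order DESeq2 called 1449, 651, 410, 51 and 38 of all genes. With no filter the member counts were 3 in NC 24 h against 12 h, 1 between the lines at 24 h, and 4 and 3 for the interactions, where 512, 286, 46 and 33 of all genes were called. Upper-quartile factors gave 4 in NC 24 h and 1 between the lines at 24 h, and leaving out CT010467.2 gave 1 there. These fits called 1229, 245 and 249 of all genes, in that order. The compared groups alone gave 0 in NC 24 h against 12 h and 1 for the interaction at 12 h, where 263 and 2 of all genes were called. Without the libraries numbered 2 there were 4 in NC 12 h and 1 for the interaction at 12 h, where 1502 and 2 of all genes were called. The cause of these differences was not tested. Leaving out 1 library at a time gave 4 to 7 calls in NC 12 h, 1 to 3 in NC 24 h, 0 to 3 in NC 24 h against 12 h, 11 to 14 in KD 12 h, 7 to 10 in KD 24 h, 2 to 3 in KD 24 h against 12 h, 9 to 13 between the lines at control, 1 to 3 at 12 h, 0 to 2 at 24 h, 10 to 12 over all times, 1 to 3 for the interaction at 12 h and 0 to 1 at 24 h. Depth limits the members under a few CPM, such as Atf3, Nupr1 and Gdf15, for which a missing call says little.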
